A study of Mus musculus with 6 samples.

Results

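The genes described here form the fetal programme of blood stem cells: Lin28b, Hmga2, Igf2bp1, Igf2bp2, Igf2bp3, Sox17, Arid3a and Bcl11a. These 8 genes were taken by symbol from a table of read counts for 23951 genes. RNA was sequenced from haematopoietic stem cells (HSCs) of mouse fetal liver. There were 3 libraries with a knockout of Uqcrfs1 (KO) and 3 wild type libraries (WT), all from the C57BL/6 strain. Uqcrfs1 encodes the Rieske iron-sulfur protein (RISP), which carries electrons within complex III of the respiratory chain. Neither the promoter or Cre line behind the knockout, nor the embryonic age, nor whether libraries came from separate embryos, is given in the sources used here. Each p-value is thus set against the scatter of these 6 libraries alone, and some of that scatter may be technical.

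Fetal HSCs divide often and have a different lineage output from the largely quiescent HSCs of the adult marrow. LIN28B, an RNA-binding protein, is central to this state: it blocks the maturation of let-7 microRNAs, and let-7 microRNAs repress mRNAs that carry matching sites in their 3' untranslated region (UTR). HMGA2, a DNA-bending chromatin protein, and the IGF2BP proteins, which bind and stabilise mRNAs, are classic let-7 targets. SOX17 is a transcription factor required by fetal and neonatal but not adult HSCs. ARID3A is a DNA-binding protein known from B lymphocytes and embryonic haematopoiesis, and BCL11A is a zinc finger repressor needed for lymphoid development and for the silencing of embryonic globin genes.

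Since let-7 links most of these genes, its sequences are shown first. In the RefSeq table (GRCm38.p6) 11 mature mouse microRNA names share the let-7 seed, bases 2 to 8, printed in capitals. These 4 members, all of 22 bases, show the shared seed and the bases that vary outside it.
let-7a: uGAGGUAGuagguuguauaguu
let-7e: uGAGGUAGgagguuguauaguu
let-7g: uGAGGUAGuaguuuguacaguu
miR-98: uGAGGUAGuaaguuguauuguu

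A search for the 7 bases complementary to this seed (CTACCTC, sense strand only) in the longest annotated 3' UTR of each gene (GENCODE M21) found 16 sites in 6 of the 8 genes. Lin28b, Hmga2 and Igf2bp1 had 4 sites each, Arid3a had 2, Igf2bp2 and Igf2bp3 had 1 each, and Sox17 and Bcl11a had 0. Of 21173 genes with a 3' UTR, 10.1% had at least 1 such match and 0.175% had at least 3. Long 3' UTRs hold more matches: of the 8274 genes with a 3' UTR of at least 1500 bases, 18.7% had a match and 0.423% had at least 3, and 7 of the 8 genes described here have a 3' UTR of that length. The sites below are written as DNA on the mRNA strand, with the seed match in capitals. They are given to show the same 7 letters in 6 of the 8 genes, among different flanking bases.
Lin28b, site 1: cccgggcgggaagtCTACCTCatg
Hmga2, site 1: ccgacattcaatttCTACCTCagc
Igf2bp1, site 2: agcagtgctattaaCTACCTCagc
Igf2bp1, site 3: tataaatggatgaaCTACCTCagt
Igf2bp2: cacacaaataaaagCTACCTCagg
Igf2bp3: gcatttttactcaaCTACCTCagg
Arid3a, site 1: aggcaagtttctttCTACCTCagg
In 8 of the 16 sites, these 7 bases were followed by an A, as in all those shown here. A match is a description of the letters and not of binding.

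The libraries held 12020128 to 14590844 counts in KO and 10191354 to 13189329 counts in WT. Uqcrfs1 had 60, 51 and 39 counts in KO replicates 1 to 3, against 771, 1320 and 791 counts in WT replicates 1 to 3 (log2 fold change -4.59, edgeR adjusted p = 4.11e-09), so no library went against its label. The stem cell marker list of 13 genes summed to 2459 to 2792 CPM in KO and 2870 to 3537 CPM in WT (CPM, counts scaled to a common library size with TMM factors). Kit and Cd34 were abundant in every library. Others of the list were much lower, such as Slamf1 at 11.8 to 41.7 CPM and Ly6a at 5.84 to 24.9 CPM. WT replicate 3 stood apart by genes of other cell types. All 12 macrophage markers and 9 of 12 endothelial markers had their highest level in it. Macrophage markers summed to 44.0 to 88.3 CPM in KO libraries, and to 195, 80.8 and 1118 CPM in WT replicates 1 to 3. Endothelial markers summed to 531 to 558 CPM in KO libraries, and to 700, 536 and 1461 CPM in WT replicates 1 to 3. Results that rest on WT replicate 3 are given with and without it. The libraries also differed in sex-linked transcripts. The Y-linked genes Ddx3y, Eif2s3y, Kdm5d and Uty summed to 0, 2358 and 604 counts in KO replicates 1 to 3. In WT replicates 1 to 3 they summed to 13, 836 and 1022 counts. Xist, an X-linked RNA, had 13480, 0 and 16004 counts in KO and 13062, 5842 and 8988 counts in WT. The part of sex in single library values, such as that of Lin28b in KO replicate 2, was not tested.

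**Figure D1:**
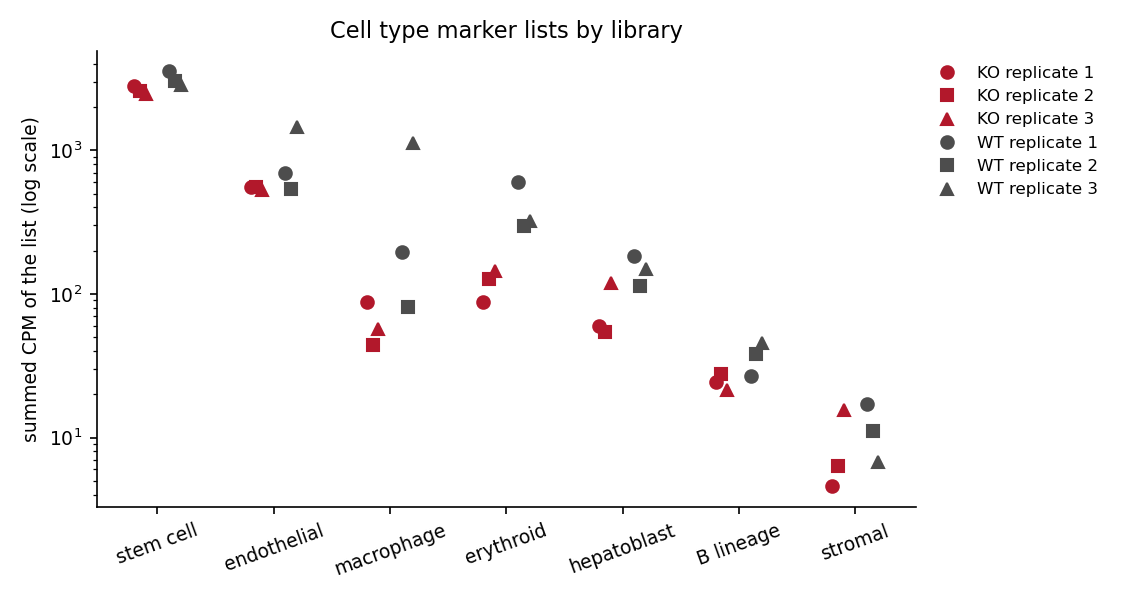
Summed CPM (log scale) of 7 lists of cell type markers in each library, KO in red and WT in grey, with 1 point per library. WT replicate 3 reaches 1118 CPM for macrophage and 1461 CPM for endothelial markers, above the other 5 libraries in both.

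None of the fetal programme genes changed past the threshold between KO and WT. Of the 8 genes, 7 had enough reads to be tested and Sox17 did not. Of those 7, 0 passed an adjusted p of 0.05 (edgeR, Benjamini-Hochberg over 12204 genes), against 11.4% of all genes tested. At an unadjusted p under 0.05, 1 of the 7, Arid3a, passed, against 25.0% of all genes tested. The KO and WT libraries did not overlap for 2 of the 7 genes, Igf2bp1 and Arid3a, against 30.2% of all genes tested. The median log2 fold change, KO over WT, was 0.03 for the 7 genes and -0.02 for all genes. The genes nevertheless fell into different patterns. Igf2bp1 was low in 2 of the WT libraries only, and Arid3a was higher in every KO library than in every WT library. The KO and WT libraries overlapped for Lin28b, Hmga2, Igf2bp2, Igf2bp3 and Bcl11a. Among these the KO mean was higher for Lin28b, slightly higher for Igf2bp2 and Igf2bp3, and lower for Hmga2 and Bcl11a.

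**Figure D2:**
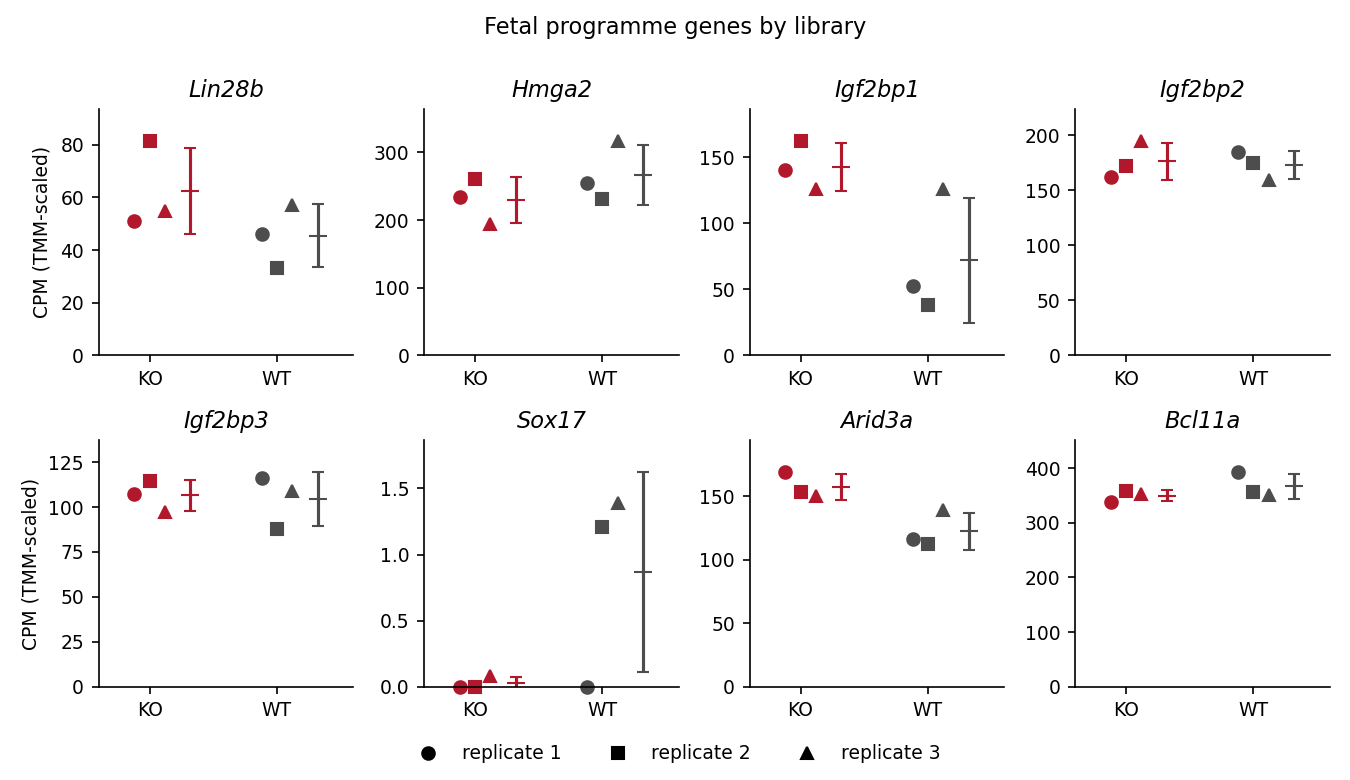
TMM-scaled CPM of the 8 genes in each library, KO in red left of WT in grey, with the symbol shape giving the replicate number and the bar the mean and SD of 3 libraries. Igf2bp1 lies at 125.6 to 162 CPM in KO and at 52.2, 37.9 and 125.5 CPM in WT replicates 1 to 3, while Igf2bp2, Igf2bp3 and Bcl11a overlap between the groups.

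Lin28b, the upstream block on let-7, stood at 51.2, 81.4 and 55.0 CPM in KO replicates 1 to 3, against 46.3, 33.0 and 57.1 CPM in WT replicates 1 to 3. KO replicate 2 was the highest library and WT replicate 2 the lowest, and the other 4 libraries lay between 46.3 and 57.1 CPM with KO and WT mixed. The mean was 62.5 ± 16.4 CPM in KO and 45.5 ± 12.1 CPM in WT (SD, n = 3 each). The log2 fold change of 0.46 (SE 0.23) had an adjusted p of 0.216 in edgeR, with a 95% interval of -0.01 to 0.93, so a rise of up to 1.91-fold lay within it. Leaving out KO replicate 2 gave a log2 fold change of 0.22, and leaving out WT replicate 3 gave 0.66 with an adjusted p of 0.0994. Lin28a, the paralog that acts in embryonic stem cells, had 0 counts in every library, so the LIN28 reads counted were those of Lin28b. A count of 0 need not mean absence here, since adult beta-globin genes at 0 counts had high deposited RPKM.

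Of the IGF2BP family, Igf2bp1 had the widest spread of the 7 tested genes and its WT libraries disagreed. Its level was 140.5, 162 and 125.6 CPM in KO replicates 1 to 3, against 52.2, 37.9 and 125.5 CPM in WT replicates 1 to 3. KO replicate 3 and WT replicate 3 were level, and the other 2 WT libraries lay far below every KO library. The mean was 143 ± 18.3 CPM in KO and 71.9 ± 47.0 CPM in WT (SD, n = 3 each), and the log2 fold change of 0.99 (SE 0.51) did not pass (edgeR, adjusted p = 0.330, 95% interval -0.36 to 2.33). Without WT replicate 3, which holds the macrophage and endothelial transcripts described above, the log2 fold change was 1.66 (SE 0.19) and passed (edgeR, adjusted p = 7.74e-06). Without each of the other 5 libraries it was 0.68 to 1.07 and did not pass. The level in WT replicate 3 was 2.79 times the mean of the other 2 WT libraries, 45.1 CPM. The part of macrophage or endothelial transcripts in that value was not tested. The limma-voom fit, which also weights single observations, gave 1.12 with an adjusted p of 0.0107 over all 6 libraries.

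Igf2bp2, the paralog that also persists in adult tissues, had 162, 172 and 195 CPM in KO replicates 1 to 3, against 185, 175 and 159 CPM in WT replicates 1 to 3. The groups overlapped throughout, and the log2 fold change was 0.03 (SE 0.12, edgeR adjusted p = 0.930, 95% interval -0.23 to 0.28). Igf2bp3 had 108, 115 and 97.5 CPM in KO replicates 1 to 3, against 116, 87.7 and 109 CPM in WT replicates 1 to 3. Its log2 fold change was also 0.03 (SE 0.15, edgeR adjusted p = 0.934, 95% interval -0.29 to 0.34). Both signs changed with the library left out. On a linear scale the intervals ran from 0.852 to 1.22 of the WT level for Igf2bp2 and from 0.821 to 1.27 for Igf2bp3.

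Per transcript length, Igf2bp1 was the least abundant of the 3 paralogs. In the deposited RPKM values, which are scaled by transcript length as well as by depth, Igf2bp1 stood at 16.5 ± 2.26 in KO and 8.61 ± 5.68 in WT, Igf2bp2 at 36.6 ± 4.58 in KO and 35.0 ± 2.33 in WT, and Igf2bp3 at 28.8 ± 2.57 in KO and 28.0 ± 3.39 in WT (SD, n = 3 each). On this scale WT replicate 3, at 15.1 RPKM, lay above KO replicate 3, at 14.5 RPKM, so the groups overlapped for Igf2bp1. Igf2bp1 made up 20.7%, 22.1% and 17.7% of the summed RPKM of the family in KO replicates 1 to 3, against 8.47%, 7.13% and 19.4% in WT replicates 1 to 3. The difference of 8.51 percentage points had an exact two-sided permutation p of 0.2. The share of Igf2bp3 was 37.4%, 36.3% and 31.7% in KO replicates 1 to 3, against 40.7%, 38.3% and 38.1% in WT replicates 1 to 3, all KO libraries below all WT libraries. The difference of -3.90 percentage points had an exact two-sided permutation p of 0.1, the smallest that 3 libraries against 3 allow. The share of Igf2bp2 differed by -4.62 points (exact permutation p = 0.2). Shares of one sum are not independent of each other, and the 3 p-values were not adjusted.

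**Figure D3:**
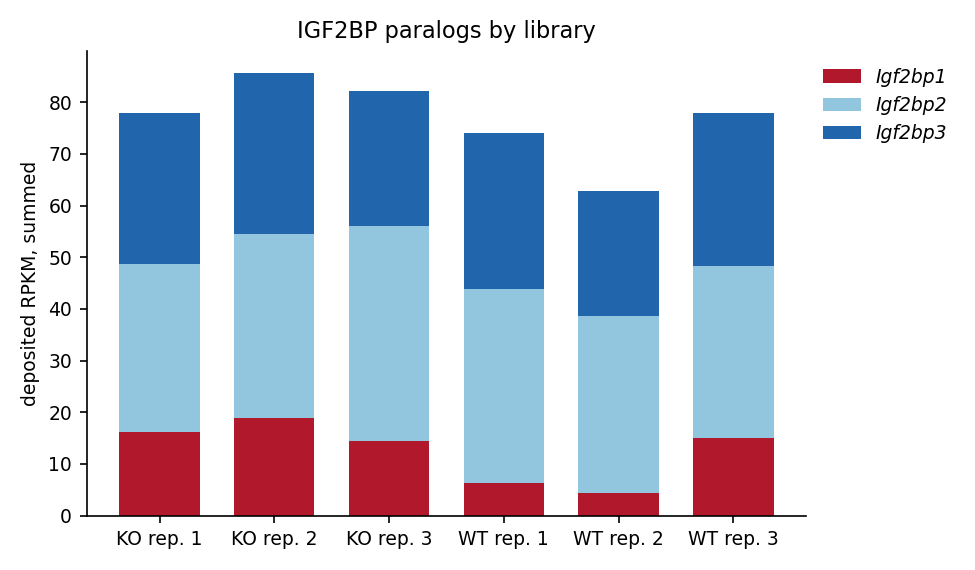
Deposited RPKM of Igf2bp1, Igf2bp2 and Igf2bp3 stacked for each library, with the KO libraries left of the WT libraries. The Igf2bp1 segment is at least 14.5 RPKM in every KO library and 6.27, 4.47 and 15.1 RPKM in WT replicates 1 to 3.

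Hmga2 had 234, 260 and 194 CPM in KO replicates 1 to 3, against 254, 231 and 316 CPM in WT replicates 1 to 3. The lowest library was KO replicate 3 and the highest WT replicate 3, with the remaining 4 mixed. The mean was 230 ± 33.5 CPM in KO and 267 ± 44.3 CPM in WT (SD, n = 3 each), with a log2 fold change of -0.22 (SE 0.13, edgeR adjusted p = 0.330, 95% interval -0.50 to 0.06). Without WT replicate 3 it was -0.08. Its fold change had the opposite sign to those of Lin28b and Igf2bp1, which carry 4 let-7 matches like Hmga2, but none of the 3 signs was established by the test. Its paralog Hmga1, which has near-identical pseudogene copies that the counting could split, stood at 13.2 ± 4.47 CPM in KO and 12.5 ± 3.12 CPM in WT (SD, n = 3 each).

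Sox17 was at the edge of detection in all libraries. It had 0, 0 and 1 counts in KO replicates 1 to 3, against 0, 13 and 18 counts in WT replicates 1 to 3. WT replicate 1 had 0 counts like 2 of the KO libraries, so the groups overlapped, and a count of 0 allows up to 0.301 CPM in that library. Summed over each group, 1 count in KO and 31 counts in WT gave a ratio of 0.0261, with a 95% exact interval of 0.000641 to 0.157 that covers counting error only and leaves out the spread between libraries. Sox17 is also an endothelial gene. Of the other SOXF genes, Sox7 had 12, 24 and 0 counts in KO, against 4, 3 and 76 counts in WT, and Sox18 had 218, 175 and 166 counts in KO, against 75, 75 and 289 counts in WT. Both were highest in WT replicate 3, as were 9 of the 12 endothelial markers, Kdr and Cdh5 among them. Egfl7, Emcn and Erg were highest in KO replicate 2, KO replicate 3 and WT replicate 1, in that order. Egfl7 had 87.1, 129 and 109 CPM in KO replicates 1 to 3. In WT replicates 1 to 3 it had 46.4, 37.1 and 57.1 CPM (log2 fold change 1.21, edgeR adjusted p = 0.000285). Tek went the other way, with a log2 fold change of -0.78 (edgeR adjusted p = 0.0155, at most 0.114 with 1 library left out). These were the only calls among the 12 endothelial markers, 1 higher and 1 lower, against 6.41% higher and 4.99% lower among all genes tested. The median log2 fold change of the list was -0.63. Sox17 also had 13 counts in WT replicate 2, where endothelial markers summed to 536 CPM, a value within the range of the KO libraries. The part of endothelial transcripts in the Sox17 counts was not tested. In bulk libraries, fewer cells that express a gene and less of its RNA per cell cannot be told apart.

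Arid3a came closest to the threshold. It had 169, 154 and 150.2 CPM in KO replicates 1 to 3, against 116, 112 and 139 CPM in WT replicates 1 to 3. Every KO library lay above every WT library, with WT replicate 3 nearest to the KO range. The mean was 158 ± 9.99 CPM in KO and 123 ± 14.7 CPM in WT (SD, n = 3 each), and the log2 fold change of 0.36 (SE 0.13) had an adjusted p of 0.0866 in edgeR (95% interval 0.08 to 0.64, unadjusted). It passed without WT replicate 3, at 0.46 with an adjusted p of 0.0464, and with libraries scaled by total counts alone, at 0.41 with an adjusted p of 0.0477. Its paralog Arid3b, itself a let-7 target, stood at 18.3 ± 2.36 CPM in KO and 17.4 ± 4.07 CPM in WT (SD, n = 3 each, edgeR adjusted p = 0.928), and Arid3c had 0 counts in every library.

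Bcl11a had the highest mean RPKM of the 8 genes in both groups. It had 338, 359 and 352 CPM in KO replicates 1 to 3, against 392, 356 and 351 CPM in WT replicates 1 to 3. The libraries were mixed except for WT replicate 1, the highest. The log2 fold change was -0.07 (SE 0.10, edgeR adjusted p = 0.748), with a 95% interval of -0.28 to 0.15, which is the narrowest among the 7 tested genes. Its paralog Bcl11b, a T cell regulator, had 1, 1 and 0 counts in KO and 0 in every WT library.

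**Figure D4:**
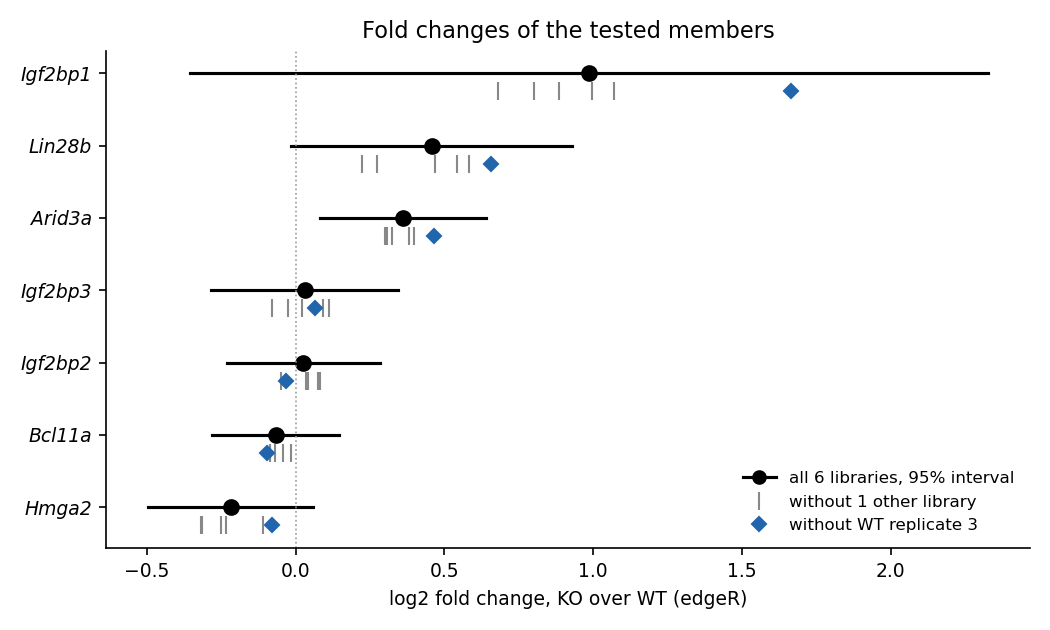
Log2 fold change, KO over WT, of the 7 tested genes (edgeR), with black points and lines for all 6 libraries and their 95% intervals, grey ticks for fits without 1 other library and blue diamonds for the fit without WT replicate 3. Igf2bp1 moves from 0.99 to 1.66 when WT replicate 3 is left out, and Igf2bp2, Igf2bp3 and Bcl11a stay near 0.

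Ordered by deposited RPKM, a scale per transcript length, Bcl11a came first at 79.0 ± 6.68 in KO and 89.8 ± 5.80 in WT. Hmga2 followed at 66.1 ± 6.10 in KO and 76.0 ± 12.8 in WT, then Igf2bp2, Igf2bp3, Arid3a at 21.9 ± 1.12 in KO and 16.3 ± 2.54 in WT, Lin28b at 18.7 ± 4.24 in KO and 13.3 ± 3.59 in WT, Igf2bp1, and Sox17 at no more than 0.420 RPKM in every library (SD, n = 3 each). The order by group mean was the same in KO and WT. Neighbours in this order were not tested. The mean ± SD ranges of Arid3a and Lin28b overlapped in both groups, as did those of Lin28b and Igf2bp1, and those of Bcl11a and Hmga2 overlapped in WT only.

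**Figure D5:**
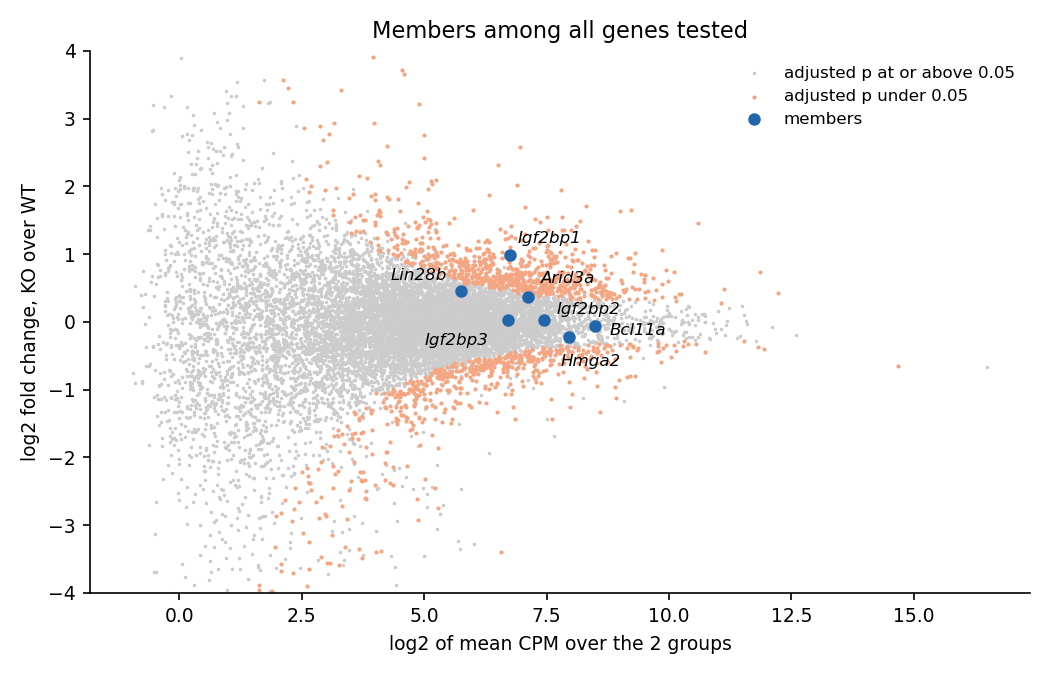
Log2 fold change, KO over WT, against log2 mean CPM for all 12204 genes tested, with genes past the threshold in orange and the 7 tested members in blue. The members are well expressed and none passed, Igf2bp1 included, whose fold change of 0.99 lies at a height where called genes are common, and 79 genes beyond a log2 fold change of 4 in either direction are not drawn.

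The gene lists from here on were chosen with earlier results of these data known, so their counts are a description. Of 13 tested genes of let-7 processing and decay, 1 was higher in KO and 0 lower, against 6.41% higher and 4.99% lower among all genes tested (median log2 fold change 0.27). The higher gene was Dicer1, the nuclease that cuts precursors into mature microRNAs and itself a let-7 target. It had 208, 226 and 182 CPM in KO replicates 1 to 3, against 137, 136 and 135 CPM in WT replicates 1 to 3, and rose by 0.59 on the log2 scale (SE 0.12, edgeR adjusted p = 0.00324). The WT libraries were almost identical, and all KO libraries lay above them.

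Of 23 tested genes known from the literature as let-7 targets, 4 rose in KO and 0 fell (median log2 fold change 0.04). Among all genes tested, 6.41% were higher and 4.99% lower. Dicer1 is counted in both lists. The others were Map4k4, a kinase gene, Mycn, a growth-promoting transcription factor of the MYC family, and Ccnd1, the cyclin D1 gene that drives entry into S phase. Mycn had 388, 434 and 499 CPM in KO replicates 1 to 3, against 314, 308 and 302 CPM in WT replicates 1 to 3 (log2 fold change 0.51, SE 0.11, edgeR adjusted p = 0.00405). Map4k4 had 268 ± 27.1 CPM in KO and 136 ± 20.6 CPM in WT, and rose by 0.98. Ccnd1 had 178, 150.4 and 121 CPM in KO replicates 1 to 3, against 95.8, 72.1 and 113 CPM in WT replicates 1 to 3. Its rise of 0.68 (edgeR adjusted p = 0.0131) lost its call without KO replicate 1, KO replicate 2 or WT replicate 2 (highest adjusted p 0.0868). With limma on log2(RPKM + 1), 0 of these 4 genes passed, where 424 genes passed in all.

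Across all genes, the number of let-7 matches in the 3' UTR went with little difference. Leaving out the 8 genes themselves, 6.01% of 1414 tested genes with 1 or 2 matches were higher in KO and 4.31% lower, against 6.58% higher and 5.19% lower of 10274 genes with no match. Median log2 fold changes were -0.02 and -0.03. Of the 23 genes with 3 or more matches, 2 were higher and 1 lower, with a median log2 fold change of 0.04 and a median transcript of 6334 bases. The median transcript of genes with no match was 3354 bases. Transcript length went with the fold change in these libraries: with the genes split into 10 classes of equal size by length, 203 of the longest class were higher and 54 lower in KO, and 21 of the shortest class were higher and 95 lower. Igf2bp1 belongs to the longest class, and Lin28b, Arid3a and Bcl11a to the next. With an offset for length, the log2 fold changes of Igf2bp1, Lin28b and Arid3a were 0.87, 0.41 and 0.31, none past the threshold. Mature let-7 was not measured. All 14 rows of let-7 and miR-98 precursors in the count table were at 0 in every library, and the let-7b host gene row had 0, 9 and 14 counts in KO and 0, 7 and 11 counts in WT.

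Transcripts known to be bound by IGF2BP proteins did not move together. Of 12 tested, Mki67, a marker of dividing cells, rose to 2269 ± 199 CPM in KO, against 830 ± 244 CPM in WT (edgeR adjusted p = 0.00390), and Actb, the cytoplasmic actin gene, fell to 3411 ± 318 CPM in KO, against 4511 ± 205 CPM in WT (SD, n = 3 each; adjusted p = 0.00344). The remaining 10 did not pass, where 6.41% of all genes tested were higher and 4.99% lower. Igf2, the growth factor mRNA that gave the family its name, had a log2 fold change of -0.74 (edgeR adjusted p = 0.0936), and H19, its imprinted neighbour, 0.07 (adjusted p = 0.781). Both were chosen for mention after their values were seen.

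Of 14 growth and Polycomb genes of fetal stem cells, 2 rose in KO and 0 fell. Over all genes tested, 6.41% were higher and 4.99% lower. The 2 higher genes were Mycn, already counted among the let-7 targets, and Ezh2, the histone methyltransferase of Polycomb complexes that fetal HSCs depend on. Ezh2 had 192, 167 and 192 CPM in KO replicates 1 to 3, against 144, 145 and 120 CPM in WT replicates 1 to 3 (log2 fold change 0.43, SE 0.13, edgeR adjusted p = 0.0325). This call was lost without KO replicate 1, KO replicate 2, KO replicate 3 or WT replicate 3 (highest adjusted p 0.124).

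Of 16 genes that are typically higher in adult than in fetal stem cells, 0 rose in KO and 3 fell. Their median log2 fold change was -0.28, against -0.02 for all genes, of which 6.41% were higher and 4.99% lower. Txnip, a thioredoxin-binding protein gene that restrains glucose uptake, fell to 174 ± 11.2 CPM in KO, against 323 ± 51.5 CPM in WT (SD, n = 3 each; edgeR adjusted p = 6.63e-05). Klf2, a quiescence-associated transcription factor gene, fell by 1.14 on the log2 scale (adjusted p = 0.00816). Ndn, an imprinted growth suppressor gene, fell by 0.92 (adjusted p = 0.0385), a call lost without any 1 library other than KO replicate 1 (highest adjusted p 0.183). Stem cell markers were lower in the same libraries: 5 of 13 fell, among them Kit, Hlf and Cd34, against 4.99% of all genes tested. This count of 5 came to 0 with KO replicate 2 left out and to 1 with KO replicate 3 or WT replicate 1 left out.

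Of 22 tested partners of BCL11A, 3 rose and 2 fell, against 6.41% higher and 4.99% lower among all genes tested, and 17 did not pass. On RPKM 2 passed as higher, Ncor1 and Chd4, and 0 as lower, in each of 3 fits. Ncor1, a nuclear receptor corepressor, had 596 ± 32.7 CPM in KO and 305 ± 1.12 CPM in WT (log2 fold change 0.97, SE 0.10, edgeR adjusted p = 2.13e-06). Chd4, the helicase of the NuRD complex, rose by 0.56 (adjusted p = 0.000285) and Zfpm1, the GATA1 partner FOG1, by 0.54 (adjusted p = 0.00209). Rbbp4, a histone-binding NuRD subunit, fell by 0.42 (adjusted p = 0.0194), a call lost without KO replicate 2, KO replicate 3 or WT replicate 2 (highest adjusted p 0.101). The other lower gene was Klf1, the erythroid transcription factor, which fell by 1.72 (adjusted p = 0.0285), a call lost without KO replicate 2, KO replicate 3 or WT replicate 1 (highest adjusted p 0.141). Erythroid markers summed to 87.7 to 145 CPM in KO and 299 to 600.3 CPM in WT. The part of erythroid transcripts in that value was not tested.

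Hbb-y, the embryonic beta-like globin gene that BCL11A represses, had 8, 100 and 260 counts in KO replicates 1 to 3, against 0, 0 and 47 counts in WT replicates 1 to 3. The groups overlapped and the difference did not pass (edgeR adjusted p = 0.465). In Hbb-y it passed without WT replicate 3 (adjusted p = 0.00790) and with the replicate number as a block (adjusted p = 0.0188). Hbb-bt and Hbb-bs, adult beta-globin genes, were listed at 0 counts in all libraries, so they could not be read from the counts, yet they had high deposited RPKM. Hbb-bt had 488, 944 and 981 RPKM in KO replicates 1 to 3, against 2281, 2154 and 1927 RPKM in WT replicates 1 to 3. Hbb-bs had 146, 215 and 93.9 RPKM in KO replicates 1 to 3, against 3330, 2854 and 2295 RPKM in WT replicates 1 to 3. Every KO library lay below every WT library for both genes and for Hba-a2, and 3 globin genes were called lower with limma on log2(RPKM + 1). Other erythroid genes were lower too. Of 11 tested erythroid markers, 4 were lower and 0 higher, against 4.99% lower and 6.41% higher among all genes tested (median log2 fold change -2.29). They were Alas2 (-2.93), Epb4.2 (-3.59), Slc4a1 (-3.40) and Klf1 (-1.72). The part of erythroid transcripts in the globin values was not tested. Hbb-b1, also at 0 counts, overlapped between the groups. It had 48.5, 0.000942 and 234 RPKM in KO replicates 1 to 3. In WT replicates 1 to 3 it had 373, 20.2 and 0.00120 RPKM. Hba-a1 had at most 0.00252 RPKM in any library. How the RPKM divides reads among these near-identical copies is not given in the sources used.

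B lineage markers other than Cd79b were low, which bears on Arid3a and Bcl11a as lymphoid genes. Ebf1, Pax5, Cd79a, Vpreb1, Igll1 and Il7r had 0 counts in every KO library, and Dntt and Blnk had 0 counts in all 6 libraries. In WT the highest counts were 36 for Vpreb1, 33 for Pax5 and 31 for Rag1, all in WT replicate 2, and 31 for Il7r in WT replicate 3. Rag1 had 11 counts in KO replicate 2. WT replicate 2 held the highest level of 5 of the 9 detected markers. The summed level of the list was 21.4 to 27.8 CPM in KO and 26.9 to 45.4 CPM in WT, most of it from Cd79b, and its part in the Arid3a and Bcl11a values was not tested. Of 9 detected markers, only Cd79b passed the filter, at 23.9 ± 2.29 CPM in KO and 30.9 ± 9.22 CPM in WT (SD, n = 3 each, edgeR adjusted p = 0.433). Hepatoblast markers, given because hepatoblasts also express Igf2bp genes in fetal liver, summed to 54.1 to 119.7 CPM in KO and 113.5 to 184 CPM in WT. Their part in the Igf2bp1 values was not tested.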

How the data were processed

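RNA was sequenced from 3 KO and 3 WT libraries made with a stranded, low-input total RNA kit, per the labels' protocols. The authors deposited read counts per gene and RPKM values. Per the submitters' processing notes, TopHat and Cufflinks were used on the mm9 build; the sources used here give no version, counter, annotation or strand setting, so overlapping and antisense genes cannot be told apart. Under R 4.3.3, edgeR 4.0.16 tested the deposited counts by its robust quasi-likelihood method, with genotype alone in the model, after filterByExpr and TMM scaling, with Benjamini-Hochberg adjustment over 12204 genes and a threshold of 0.05. The code was tested on simulated data. CPM were computed with TMM library sizes. Each SE was derived from the log2 fold change and its F statistic, and 95% intervals use it with the fit's degrees of freedom. Total counts were 10191354 to 14590844 per library. The limit for a count of 0 is 3 counts, for counting error only. Alternatives used DESeq2 1.42.0, limma 3.58.1, deposited RPKM with pseudocounts of 1 and 0.1, left-out libraries and covariates. No replicate pair agreed within counting noise (chi-square of 21.7 to 43.1 per degree of freedom), so each library counted as 1 replicate. Members and lists were chosen with earlier results of these data known. Named genes were Uqcrfs1, all members and their paralogs, up to 4 genes with the smallest p past the threshold in each list (or the 1 with the smallest p), and the 2 genes most alike in pattern to each member. Let-7 sequences come from RefSeq GRCm38.p6, and 3' UTRs and transcript lengths from GENCODE M21, matched by symbol (lengths for 99.4% of genes tested).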

Additional observations from a re-analysis of the deposited data

How the results depend on the processing

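The count of fetal programme genes past the threshold was 0, and it was 1 with scaling by total counts (Arid3a), 1 with limma-voom (Igf2bp1) and 0 to 2 when 1 library was left out, 2 of them without WT replicate 3 (Igf2bp1 and Arid3a). It was 0 with DESeq2, DESeq2 size factors, no filter, all 3 fits on RPKM, the Y-linked covariate, the length offset and the replicate block. The cause of these differences was not tested. Of 1391 genes called, 782 were higher and 609 lower. With limma on log2(RPKM + 1) there were 424 (275 higher, 149 lower), on log2(RPKM + 0.1) 434 (287 and 147) and with no filter 236 (153 and 83). Leaving out 1 library gave 712 to 1263 (448 to 717 higher, 264 to 546 lower). Over the other gene lists, 27 genes were called, against 41 with DESeq2, 12, 11 and 8 in the 3 fits on RPKM, and 17 to 32 without 1 library. Signs that changed belonged to genes that passed in no setting. Over left-out libraries the log2 fold change of Hmga1 was -0.22 to 0.30, of Arid3b -0.11 to 0.18, of Sox18 -0.15 to 0.89 and of Sox7 -2.30 to 1.26. That of Igf2bp2 was -0.050 to 0.083 and that of Igf2bp3 was -0.081 to 0.11. With the length offset Igf2bp2 was at -0.018, and with the Y-linked covariate Hmga1 was at -0.0012. In all 3 fits on RPKM, Dicer1, Mycn, Map4k4, Ccnd1, Ezh2, Klf2, Ndn, Actb, Zfpm1, Rbbp4, Klf1 and all stem cell markers lost their calls, while Txnip, Mki67, Ncor1 and Chd4 passed. The IGF2BP share differences kept their signs, at 6.25 to 12.4, -7.99 to -2.01 and -5.03 to -2.17 points for Igf2bp1, Igf2bp2 and Igf2bp3. Libraries with the same replicate number did not deviate together (r = 0.0128, 0.0124 and -0.00766 across genes), so no pairing by number was seen. A correlation across all genes cannot exclude a pairing that acts on few of them. With the replicate block 762 genes were higher and 579 lower.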

Other observations

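The genes whose level followed a member most closely over the 6 libraries were found by Pearson's r of log2(CPM + 1), a description over 6 points in 2 groups. Bcl7a (r = 0.989) and Tada2b (r = 0.982) were closest to Lin28b, Sec16a (r = 0.991) and Vps51 (r = 0.987) to Igf2bp1, and Mum1 (r = 0.996) and Atp2a2 (r = 0.993) to Arid3a. Pter (r = 0.993) and Cfp (r = 0.981) were closest to Hmga2. For Igf2bp2 these were Rell2 (r = 0.999) and Ndnl2 (r = 0.996), for Igf2bp3 Pdcd6 (r = 0.990) and 5430405H02Rik (r = 0.979), and for Bcl11a Ptgr2 (r = 0.994) and As3mt (r = 0.992). With this many genes and 6 libraries, values near 1 are common. Among the members, Igf2bp1 had r = 0.937 with Arid3a and 0.863 with Lin28b, while Hmga2 had r = 0.113 with Igf2bp1 and 0.263 with Lin28b.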
